A study of Homo sapiens with 8 samples.

Results

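The genes described are those of the human SR proteins and hnRNPs, together with the kinases that phosphorylate SR proteins and a small set of regulators known from heart muscle splicing. They were chosen by gene symbol and by the protein-coding label in the deposited table: SRSF followed by a number, any symbol beginning with HNRNP, and 15 named genes. This rule took no measured value, and it found 53 of the 60658 genes listed, namely 12 SR proteins, 26 hnRNPs, the 2 TRA2 proteins, 6 CLK and SRPK kinases and 7 other regulators.

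RNA sequencing compared iPSC-derived cardiomyocytes (iPSC-CMs, heart muscle cells differentiated from induced pluripotent stem cells) of a single iPSC line in 2 groups of 4 libraries. In the H/R+BA group, cells spent 12 h at 1% O2 in DMEM that held no serum and little glucose (0.3 g/L) and were then reoxygenated for 12 h in medium conditioned by brown adipocyte (BA) tissue sheets, which were built from rat brown preadipocytes. The H/R group had the same hypoxia and was reoxygenated for 12 h in regular DMEM with 10% fetal bovine serum, so both groups carry the injury and they differ in the reoxygenation medium. Serum is recorded at 10% for both groups. The sheets were kept in DMEM with serum, insulin and triiodothyronine, and no group had such medium without sheets. Secreted factors and medium additives therefore cannot be told apart. The study's question was what the secreted factors of BA sheets change in injured cardiomyocytes. Nothing in the sources says whether the 4 libraries of a group came from separate cultures, so the p-values below measure only the spread between these libraries.

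Values are FPKM, fragment counts scaled by transcript length and by library depth, and a gene was called when limma's test of log2(FPKM + 1) gave a Benjamini-Hochberg adjusted p under 0.05 over the 14334 genes that reached 1 FPKM in at least 4 libraries. Depth was 48100296 to 53308952 reads in H/R+BA libraries and 39854257 to 48898147 in H/R libraries, with the lowest in H/R 3, which also had the highest share of FPKM from mitochondrial genes (13.9% to 16.5% in H/R+BA libraries, 14.9% to 21.97% in H/R libraries). All 9 cardiomyocyte markers were expressed and none was called, with summed levels of 13264 to 16591 FPKM in H/R+BA and 11572 to 17886 FPKM in H/R. Markers of other cells did move: 5 of 7 tested endothelial markers were higher in H/R+BA (sums of 121 to 144 FPKM, against 83.0 to 101 in H/R, with VWF under 1 FPKM throughout), as were 2 of 7 fibroblast markers (683 to 892 FPKM, against 481 to 763), both tested leukocyte markers (12.6 to 17.9 FPKM over the list, against 4.40 to 9.48, with PTPRC at 0 in every H/R+BA library and in 3 H/R libraries) and all 3 tested pluripotent markers (10.96 to 13.3 FPKM, against 3.97 to 4.85). MYH11 of the 5 smooth muscle markers was lower (sums of 1726 to 1959 FPKM, against 1838 to 2660), the proliferation list had 1 higher and 1 lower of 7 (52.1 to 60.4 FPKM, against 51.1 to 61.9), and none of the 6 endoderm markers was called (784 to 1288 FPKM, against 593 to 1613). The part of these cells in the splicing-factor values was not tested. In such bulk RNA, fewer cells of a type and less RNA per cell cannot be told apart.

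SR proteins bind exonic enhancers through RNA recognition motifs, and with their arginine- and serine-rich tails they recruit the spliceosome and favour exon inclusion. hnRNPs coat nascent RNA and often act the other way, by silencing or looping out exons, although each has its own positions where it activates. CLK kinases in the nucleus and SRPK kinases mainly in the cytoplasm phosphorylate the SR tails and so set where SR proteins are and whether they are active. In the heart, RBM20, RBFOX2, MBNL1, MBNL2, CELF1 and the polypyrimidine tract-binding proteins set the fetal and adult isoforms of sarcomere and calcium-handling genes.

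Many of these genes are known to limit their own mRNA by splicing it into an unproductive form, through an extra exon with an early stop codon (a poison exon) or by skipping an exon, and such transcripts are degraded by nonsense-mediated decay. The deposited tables give 1 value per gene over all its transcripts, so the use of these exons was not measured here. They are shown for 5 of the 9 called genes, from GENCODE 44, because a gene's total sums productive and unproductive transcripts. For SRSF3, TRA2B and HNRNPL, the sequence runs from the first base of the extra exon to its in-frame stop codon, which is in capitals (GRCh38, 5′ to 3′ on the gene's strand).
SRSF3 extra exon of SRSF3-203 (chr6:36599821-36599854, plus strand): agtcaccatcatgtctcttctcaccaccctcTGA
TRA2B extra exon of TRA2B-205 (chr3:185931772-185931852, minus strand): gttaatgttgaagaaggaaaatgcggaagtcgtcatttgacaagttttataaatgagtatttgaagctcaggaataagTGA
HNRNPL extra exon of HNRNPL-202 (chr19:38841624-38841682, minus strand): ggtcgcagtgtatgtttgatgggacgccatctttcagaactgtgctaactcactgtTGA
The whole extra exon is 456 bases long in SRSF3, 276 in TRA2B and 70 in HNRNPL. For CLK1 and CLK4, the exon that an unproductive transcript leaves out is exon 4 of the reference transcript in both, and it has the same length of 91 bases in both genes, with the bases shared at the same position in capitals.
CLK1 exon 4, absent from CLK1-204 (chr2:200860125-200860215, minus strand): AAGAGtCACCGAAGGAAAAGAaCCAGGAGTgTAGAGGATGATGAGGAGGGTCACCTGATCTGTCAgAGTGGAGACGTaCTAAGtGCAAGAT
CLK4 exon 4, absent from CLK4-210 (chr5:178617344-178617434, minus strand): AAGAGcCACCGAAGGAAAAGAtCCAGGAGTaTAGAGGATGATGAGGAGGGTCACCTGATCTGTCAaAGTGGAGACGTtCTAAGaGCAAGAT
These exons of CLK1 and CLK4 were identical at 85 of 91 positions (93.4%), so fragments inside such stretches differ little between the paralogs, and how the authors' counting divided them was not stated.

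Of the 53 genes, 49 were tested, and the other 4, HNRNPCL1, HNRNPCL2, HNRNPCL3 and HNRNPCL4, were listed at 0 in every library. The H/R+BA group had 8 lower genes and 1 higher gene among the 49. That is 18.4% called, against a background of 24.7% of all genes tested. The higher share was 2.04% against a background of 13.7%, and the lower share was 16.3% against 11.1%. The median log2 fold change of the 49 was −0.08, against 0.01 over all genes tested. H/R+BA and H/R libraries did not overlap for 13 of the 49, or 26.5%, against a background of 28.6%, with H/R+BA above in 4 and below in 9. The lower genes were both TRA2 proteins, the kinases CLK1 and CLK4, the SR protein SRSF3 and the hnRNPs HNRNPR, HNRNPUL2 and HNRNPL, and the higher gene was HNRNPH3. No gene of the regulator group was called.

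**Figure D1:**
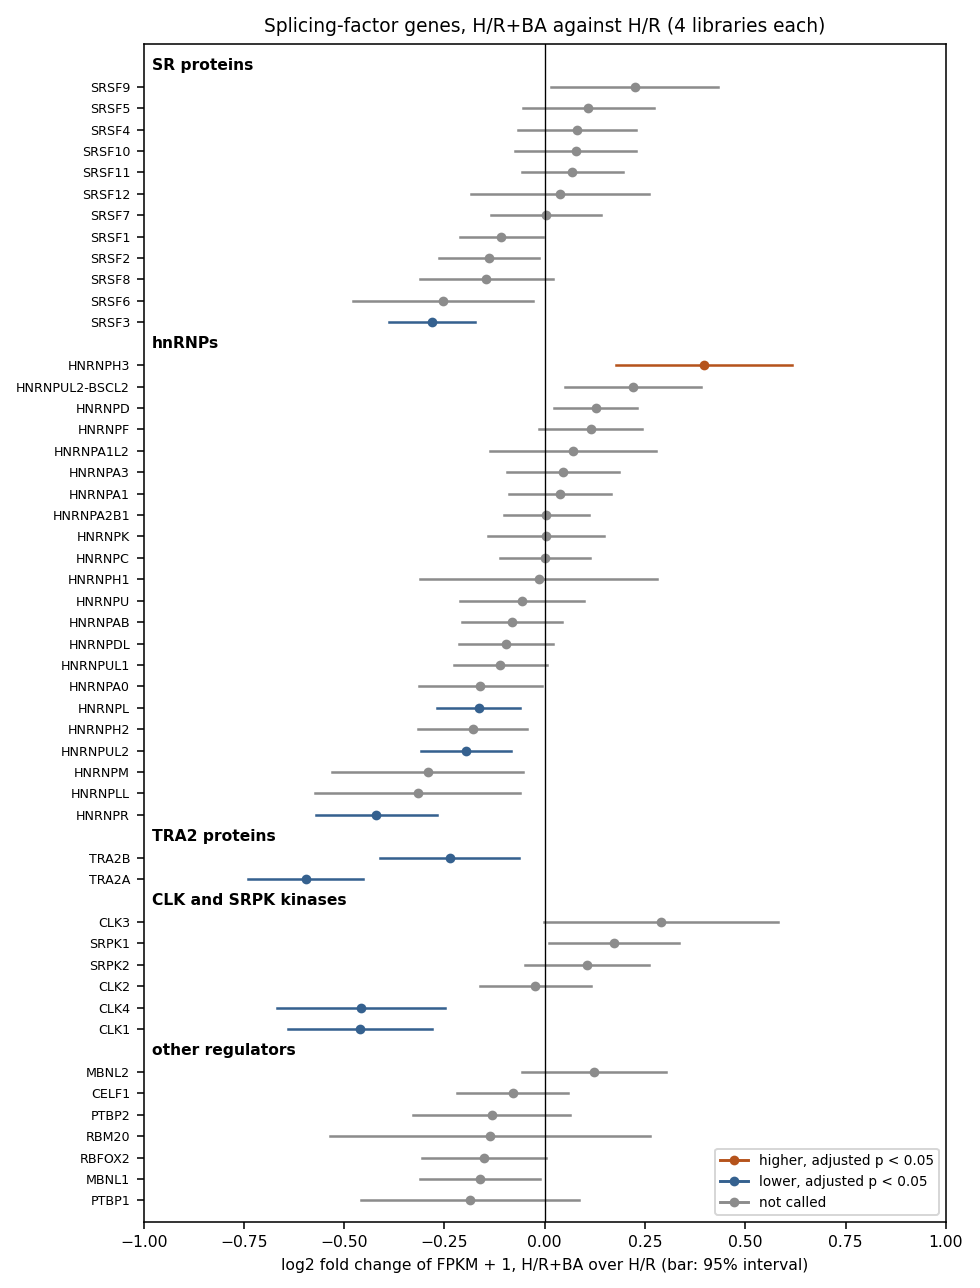
Log2 fold change of FPKM + 1, H/R+BA over H/R, on the x axis for each of the 49 tested genes on the y axis, grouped by family, with bars for the 95% interval of the limma fit. The 8 lower calls (blue) run from −0.60 for TRA2A to −0.16 for HNRNPL, HNRNPH3 (orange) is at 0.40, and most of the other intervals include 0.

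TRA2A and TRA2B, SR-like proteins that bind GAA-rich exonic enhancers, were both lower in H/R+BA iPSC-CMs. TRA2A (chr7:23504780-23532041, minus strand) had the smallest p-value of the 49 genes and ranked 116 among all genes tested. Coordinates are those of GENCODE 44 on GRCh38. It had 31.6, 29.1, 30.5 and 27.9 FPKM in H/R+BA libraries, against 45.3, 42.8, 43.8 and 50.5 FPKM in H/R libraries. Every H/R+BA library lay below every H/R library. FPKM fell by 34.7% in the mean, with a log2 fold change of −0.60 (SE 0.06, adjusted p = 5.09e-04), and the call held under all 17 alternative settings. TRA2B (chr3:185914558-185938103, minus strand) had 53.9, 51.4, 49.8 and 49.0 FPKM in H/R+BA libraries, against 62.8, 60.5, 51.7 and 67.2 FPKM in H/R libraries. The groups overlapped through H/R 3, whose TRA2B level was under that of H/R+BA 1. The log2 fold change was −0.24 (SE 0.08, adjusted p = 0.0498). That call was lost when any single library other than H/R 3 was left out, with adjusted p-values up to 0.114, and was at 0.00686 without H/R 3.

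The TRA2 mRNAs did not fall in proportion. The ratio of TRA2A to TRA2B FPKM was 0.584 ± 0.021 in H/R+BA and 0.757 ± 0.063 in H/R (SD, n = 4 each), with H/R+BA libraries between 0.566 and 0.612 and H/R libraries between 0.708 and 0.848. This ratio was chosen after the values of both genes were seen and carries no test. Summed TRA2 FPKM was 80.8 ± 3.5 in H/R+BA and 106 ± 9.3 in H/R.

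**Figure D2:**
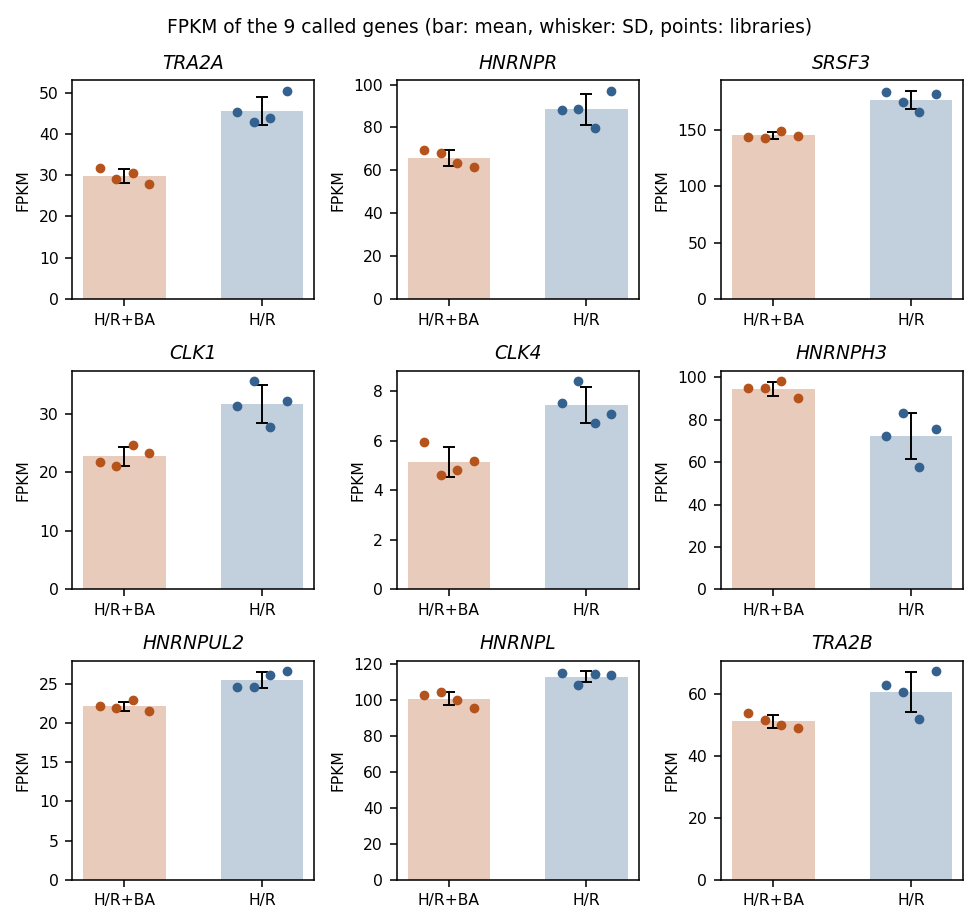
FPKM (y axis, from 0) of the 9 called genes in H/R+BA and H/R, with bars at the mean, whiskers for the SD and 1 point per library. For 8 of the 9 genes the libraries of the groups do not overlap, and for TRA2B the H/R 3 library reaches into the H/R+BA range.

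Among the SR protein kinases, the CLK1 and CLK4 mRNAs were lower in H/R+BA while those of the SRPK kinases were not. CLK1 (chr2:200853009-200864691, minus strand) had 21.8, 21.2, 24.8 and 23.3 FPKM in H/R+BA libraries, against 31.3, 35.7, 27.8 and 32.1 FPKM in H/R libraries. There was no overlap between the groups, and FPKM fell by 28.3% in the mean, for a log2 fold change of −0.46 (SE 0.08, adjusted p = 0.00368). CLK4 (chr5:178602664-178630615, minus strand), the closest relative of CLK1, was the least abundant kinase, with 5.96, 4.6, 4.81 and 5.17 FPKM in H/R+BA libraries against 7.51, 8.41, 6.72 and 7.07 FPKM in H/R libraries. Its groups did not overlap either, its log2 fold change was −0.46 (SE 0.09, adjusted p = 0.00735), and both kinases kept the call under all 17 alternatives.

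CLK3, the most abundant kinase of the set, ran from 39.0 to 46.7 FPKM in H/R+BA and from 28.8 to 47.2 FPKM in H/R. In the order of replicates it had 39.0, 45.9, 45.4 and 46.7 FPKM in H/R+BA, against 36.7, 47.2, 28.8 and 33.4 FPKM in H/R, so H/R 2 was the highest library of all while H/R 3 was the lowest. Its log2 fold change of 0.29 (SE 0.13) was not called (adjusted p = 0.131), but without H/R 2 the change was 0.42 with an adjusted p of 0.0124. CLK2 averaged 16.2 ± 0.30 FPKM in H/R+BA and 16.6 ± 1.24 FPKM in H/R, with a log2 fold change of −0.02 (95% interval −0.16 to 0.11).

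SRPK1 had 21.1, 19.2, 18.8 and 18.6 FPKM in H/R+BA, against 15.6, 18.9, 16.4 and 17.8 FPKM in H/R. Only H/R 2 reached the H/R+BA range, and the log2 fold change of 0.17 (SE 0.07) was not called (adjusted p = 0.110), and on the deposited normalized counts it was 0.05 (adjusted p = 0.612). SRPK2 averaged 21.2 ± 1.08 FPKM in H/R+BA and 19.6 ± 1.6 FPKM in H/R, a log2 difference of 0.11 (adjusted p = 0.287). The 6 kinases summed to 129 ± 2.7 FPKM in H/R+BA and 129 ± 12.9 FPKM in H/R, while the ratio of CLK1 to SRPK1 FPKM was 1.18 ± 0.13 in H/R+BA and 1.85 ± 0.13 in H/R (SD, n = 4 each). That ratio, too, was chosen after its values were seen.

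**Figure D3:**
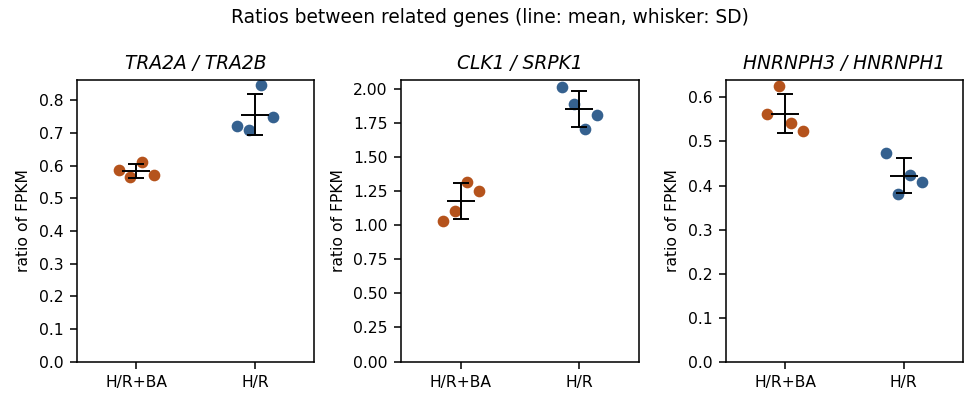
Ratio of FPKM (y axis, from 0) for TRA2A over TRA2B, CLK1 over SRPK1 and HNRNPH3 over HNRNPH1 in H/R+BA and H/R, with 1 point per library, a line at the mean and whiskers for the SD. The means are 0.584 and 0.757, 1.18 and 1.85, and 0.563 and 0.422 for H/R+BA and H/R in the 3 panels, and the pairs were chosen after the values were seen.

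Of the 12 SR proteins, 1 was called lower and none higher (8.33% called, against 24.7% of all genes tested). SRSF3 (chr6:36594353-36605600, plus strand), the smallest classical SR protein and also an mRNA export adaptor, had the highest mean FPKM of them over all 8 libraries. It had 144, 143, 149 and 145 FPKM in H/R+BA libraries, against 184, 175, 166 and 182 FPKM in H/R libraries. The H/R+BA libraries lay close together and all lay below the H/R libraries. The log2 fold change was −0.28 (SE 0.05, adjusted p = 0.00333), a fall in mean FPKM of 17.9%, and the call held under all 17 alternatives.

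SRSF5, close to SRSF3 in level and slightly above it in the H/R+BA mean (146 ± 5.1 FPKM, beside 145 ± 3.0 FPKM for SRSF3), had 142, 147, 153 and 142 FPKM in H/R+BA, against 131, 144, 119 and 150.5 FPKM in H/R. The groups overlapped and the log2 fold change of 0.11 (SE 0.07) was not called (adjusted p = 0.304). SRSF1, the prototype SR protein, lay lower in every H/R+BA library (52.0 to 55.1 FPKM, against 55.7 to 60.4 FPKM in H/R). Its log2 fold change was only −0.11 (adjusted p = 0.114). SRSF6, an SR protein with a pair of RNA recognition motifs, ran from 32.1 to 36.8 FPKM in H/R+BA and from 35.2 to 48.1 FPKM in H/R (log2 fold change −0.25, adjusted p = 0.0940, and 0.0489 without H/R 1). SRSF9 ran from 59.8 to 69.7 FPKM in H/R+BA and from 47.1 to 63.2 FPKM in H/R (log2 fold change 0.22, adjusted p = 0.106, and 0.0343 without H/R 2). SRSF2, which marks nuclear speckles, was at −0.14 on the log2 scale (adjusted p = 0.0953).

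The remaining 6, SRSF4, SRSF7, SRSF8, SRSF10, SRSF11 and SRSF12, had log2 fold changes between −0.15 and 0.08 and adjusted p-values of 0.181 to 0.979. SRSF12 was the least abundant at 2.32 to 2.95 FPKM in H/R+BA and 2.05 to 2.77 FPKM in H/R. The 12 SR proteins summed to 710.1 ± 7.8 FPKM in H/R+BA and 732 ± 46 FPKM in H/R, so the total of the family differed by less than the spread of the H/R libraries.

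Of the 22 tested hnRNPs, 3 were lower and 1 was higher in H/R+BA (18.2% called, against 24.7% of all genes tested). HNRNPR (chr1:23303771-23344336, minus strand), a relative of SYNCRIP that binds mRNA in the nucleus and the cytoplasm, had 69.5, 68.1, 63.6 and 61.8 FPKM in H/R+BA libraries, against 88.1, 88.7, 79.7 and 97.1 FPKM in H/R libraries. The groups did not overlap, and FPKM fell by 25.6% in the mean, for a log2 fold change of −0.42 (SE 0.07, adjusted p = 0.00245), and the call held under all 17 alternatives.

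HNRNPH3 (chr10:68331174-68343193, plus strand) was the only gene of the 49 called higher in H/R+BA. It belongs to the HNRNPH and HNRNPF subfamily, which binds G-rich runs near splice sites. It had 94.8, 95.1, 98.4 and 90.1 FPKM in H/R+BA libraries, against 72.3, 83.2, 57.6 and 75.9 FPKM in H/R libraries. No H/R library reached the lowest H/R+BA library, although the H/R libraries ranged widely and H/R 3 was the lowest. The log2 fold change was 0.40 (SE 0.10, adjusted p = 0.0167), and the call was lost with no filter on low values (0.0544) and without moderation of the variances (0.0590).

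The relatives of HNRNPH3 were not called. HNRNPH1 averaged 169 ± 12.5 FPKM in H/R+BA and 173 ± 36.6 FPKM in H/R, with H/R 2 at 218 and H/R 3 at 136 FPKM. Its log2 fold change was −0.02 with a 95% interval from −0.31 to 0.28. HNRNPH2 ran from 41.0 to 43.6 FPKM in H/R+BA, below the 44.2 to 51.2 FPKM in H/R, a log2 difference of −0.18 (adjusted p = 0.0574, and 0.0316 without H/R 2 or 0.0485 without H/R 4, and 0.0323 after scaling all libraries to 1 total or 0.0414 after scaling by median ratios). HNRNPH2 is uncertain, because a read-through entry, RPL36A-HNRNPH2, overlaps it and varied from 5.65 to 13.7 FPKM in H/R+BA and from 0 to 8.02 FPKM in H/R. HNRNPF lay between 93.3 and 100.1 FPKM in H/R+BA and between 80.4 and 92.5 FPKM in H/R, a log2 difference of 0.12 (adjusted p = 0.171). The ratio of HNRNPH3 to HNRNPH1 FPKM was 0.563 ± 0.045 in H/R+BA and 0.422 ± 0.039 in H/R, again a ratio chosen after its values were seen.

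HNRNPL (chr19:38836370-38852347, minus strand), which binds CA repeats and represses or activates exons by position, had 103, 104, 100.2 and 95.8 FPKM in H/R+BA libraries, against 115, 108, 114 and 114 FPKM in H/R libraries. The groups did not overlap, but the difference was small, with a log2 fold change of −0.16 (SE 0.05, adjusted p = 0.0282). The call was lost without H/R+BA 1 (0.0559), 3 (0.0724) or 4 (0.0817), and without H/R 1 (0.0635), 3 (0.0506) or 4 (0.0567). HNRNPLL, its relative best known from T cells, ran from 15.7 to 18.1 FPKM in H/R+BA and from 16.7 to 25.3 FPKM in H/R. Its log2 fold change of −0.32 was not called (adjusted p = 0.0710), with an adjusted p of 0.00778 without H/R 1.

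HNRNPUL2 (chr11:62712630-62727457, minus strand), a relative of HNRNPU with a SAP DNA-binding domain, had 22.19, 21.98, 22.95 and 21.62 FPKM in H/R+BA libraries, against 24.7, 24.7, 26.1 and 26.7 FPKM in H/R libraries. The groups did not overlap, and the log2 fold change was −0.20 (SE 0.05, adjusted p = 0.0195, and 0.0505 without H/R+BA 1, 0.0550 without H/R+BA 2 and 0.0561 without H/R+BA 4). The read-through entry HNRNPUL2-BSCL2, which begins at the same locus on chromosome 11, lay the other way, with 25.05, 24.5, 21.05 and 22.4 FPKM in H/R+BA against 20.8, 20.2, 17.6 and 20.7 FPKM in H/R. It was not called (log2 fold change 0.22, adjusted p = 0.0602, and 0.0458 without H/R+BA 3). Fragments from their shared exons can be assigned to either entry, so both values are uncertain.

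The most abundant hnRNPs differed little between the groups. HNRNPA1, a general exon silencer, had 352, 333, 345 and 329 FPKM in H/R+BA, against 344, 338, 302 and 342 FPKM in H/R. The log2 fold change was 0.04, with a 95% interval from −0.09 to 0.165. HNRNPC, which binds uridine tracts and keeps Alu-derived exons out of mRNA, had 286, 283, 295 and 274 FPKM in H/R+BA, against 279, 301, 271 and 288 FPKM in H/R, with a log2 fold change of 0.00 and an interval from −0.11 to 0.11. HNRNPK and HNRNPA2B1 were likewise at 0.00, with intervals from −0.14 to 0.15 and from −0.10 to 0.11. Each interval leaves room for a modest change in either direction.

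HNRNPM, a repressor that binds GU-rich sites, averaged 52.3 ± 3.63 FPKM in H/R+BA and 64.8 ± 10.3 FPKM in H/R, with a log2 fold change of −0.29 that was not called (adjusted p = 0.0734, and 0.0166 without H/R 3). HNRNPD, also known as AUF1 and a binder of AU-rich mRNA, was higher in every H/R+BA library (94.9 to 101 FPKM, against 86.4 to 93.2 in H/R), a log2 difference of 0.13 (adjusted p = 0.0712). The other 7 tested hnRNPs, HNRNPA0, HNRNPA1L2, HNRNPA3, HNRNPAB, HNRNPDL, HNRNPU and HNRNPUL1, had log2 fold changes between −0.16 and 0.07 and adjusted p-values of 0.117 to 0.622. All 26 hnRNPs summed to 2337 ± 47 FPKM in H/R+BA and 2376 ± 108 FPKM in H/R. Of 134 pseudogene, antisense and read-through entries with related symbols, 6 reached 1 FPKM in any library, among them HNRNPA1P7 at 1.96 to 2.48 FPKM in H/R+BA and 1.73 to 2.098 FPKM in H/R.

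None of the 7 other regulators was called. PTBP1, a repressor of muscle and neuronal exons, had 65.3, 67.8, 82.5 and 76.1 FPKM in H/R+BA libraries, against 80.5, 93.1, 65.2 and 95.8 FPKM in H/R libraries. H/R 3 was the lowest of all 8 libraries while the other H/R libraries were near or above the highest of H/R+BA. The log2 fold change was −0.19 (SE 0.12, adjusted p = 0.292), and without H/R 3 it was −0.30 (adjusted p = 0.0494), while on the deposited normalized counts it was −0.07 (adjusted p = 0.704). PTBP2, its neuronal relative, averaged 6.38 ± 0.57 FPKM in H/R+BA and 7.09 ± 0.70 FPKM in H/R (log2 fold change −0.13, adjusted p = 0.299).

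RBM20, the titin splicing repressor whose mutations cause dilated cardiomyopathy, had 9.45, 8.26, 7.57 and 6.82 FPKM in H/R+BA libraries, against 10.6, 6.77, 12.3 and 6.87 FPKM in H/R libraries. The H/R libraries fell into a high pair, H/R 1 and H/R 3, and a low pair, and the H/R+BA libraries covered the range from the low pair to just under the high pair. The log2 fold change of −0.14 had a 95% interval from −0.54 to 0.26 (adjusted p = 0.616) and was 0.01 without H/R 3. The cardiomyocyte myosin MYH7 had a like order in H/R, with 636, 289, 640.0 and 318 FPKM, beside 367, 374, 298 and 297 FPKM in H/R+BA, and the part of such differences between libraries was not tested.

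RBFOX2, which binds GCAUG motifs and activates or represses exons by position, had 69.0, 70.8, 65.3 and 59.4 FPKM in H/R+BA, against 73.8, 72.3, 79.9 and 67.9 FPKM in H/R. The groups overlapped, with a log2 fold change of −0.15 (SE 0.07, adjusted p = 0.139). MBNL1, which drives the switch to adult isoforms and is sequestered in myotonic dystrophy, had 18.9, 21.3, 19.3 and 18.7 FPKM in H/R+BA, against 22.1, 19.9, 22.8 and 23.2 FPKM in H/R. Only H/R 2 fell into the H/R+BA range, and the log2 fold change was −0.16 (SE 0.07, adjusted p = 0.107, and 0.0416 without H/R 2). MBNL2 was at 0.12 (adjusted p = 0.290), and at −0.04 on the deposited normalized counts, and CELF1, which antagonises MBNL proteins on many heart exons, at −0.08 (adjusted p = 0.372). The 7 regulators summed to 216 ± 7.7 FPKM in H/R+BA and 239 ± 6.5 FPKM in H/R, without overlap (211 to 228 FPKM, against 232 to 246 FPKM), which is a description of the sum and not a test. With FPKM rescaled to equal library totals the sums overlapped (209 to 229 FPKM in H/R+BA, against 221 to 257 in H/R).

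The H/R libraries were the more variable ones for these genes. The SD of log2(FPKM + 1) was wider in H/R than in H/R+BA for 42 of the 49 genes, or 85.7%, against 69.2% of all genes tested. The median SD was 0.07 in H/R+BA and 0.11 in H/R, beside 0.10 and 0.14 over all genes. H/R 3 was the lowest H/R library for 24 of the 49 (49.0%, against 30.9% of all genes), and H/R 4 was the highest for 21 (42.9%, against 22.8%). Within H/R+BA, library 1 was the highest for 24 of the 49 (49.0%, against 28.7% of all genes) and library 4 the lowest for 19 (38.8%, against 28.1%). HNRNPA1, HNRNPF, HNRNPK, SRSF5 and SRSF9 were lowest of all 8 libraries in H/R 3, and SRSF6, HNRNPM and TRA2A were highest of all in H/R 4. H/R 1 and H/R 3 were both below H/R 2 and H/R 4 for 19 of the 49 (38.8%, against 23.8% of all genes). They were both above for 8 (16.3%, against 27.2%). H/R 3 also had the fewest reads and the largest mitochondrial share, and the part of these in its lower values was not tested.

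**Figure D4:**
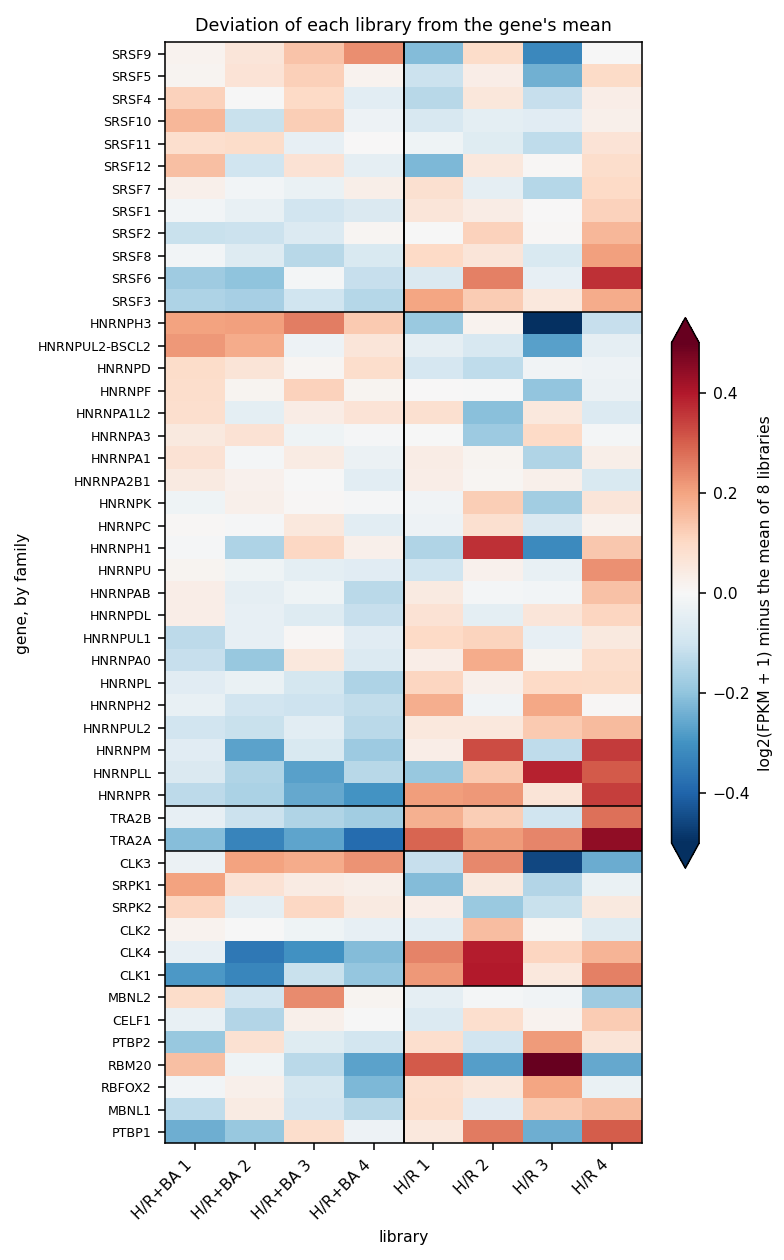
Log2(FPKM + 1) of each library minus the mean of the 8 libraries (colour, red above and blue below, ends of the scale at 0.5) for the 49 tested genes in rows, by family, with the H/R+BA libraries left of the H/R libraries. TRA2A, HNRNPR, SRSF3, CLK1 and CLK4 are blue in every H/R+BA library and red in every H/R library, and H/R 3 is the lowest H/R library in 24 of the 49 rows.

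The table also holds normalized fragment counts, which unlike FPKM are not divided by transcript length. On these counts 17 of the 49 genes were called, 15 lower and 2 higher, beside 2595 lower and 2350 higher of all 14334 genes tested. All 9 genes called on FPKM were among them, and the others were SRSF1, SRSF2, SRSF6, HNRNPH2, HNRNPLL, HNRNPM and MBNL1 as lower and HNRNPUL2-BSCL2 as higher. Over all genes tested, calls also rose from FPKM to counts, from 1958 to 2350 higher and from 1588 to 2595 lower. Higher calls were 47.5% of all calls on counts, against 55.2% on FPKM. Besides MBNL2, the small changes of SRSF7, SRSF10, CLK2, HNRNPA1, HNRNPA3 and HNRNPK had the other sign on counts, none of them called on either measure. MBNL1 differed most between the measures, with a log2 fold change of −0.35 on counts (adjusted p = 0.00280) and −0.16 on FPKM. TRA2A was at −0.75 on counts and −0.60 on FPKM, and SRSF1 at −0.20 on counts and −0.11 on FPKM.

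The ratio of FPKM to normalized count was then compared as log2 values centred on the median gene of each library. It can move with the transcript length assigned to a gene and, since the tool behind the normalized counts was not stated, with how reads were assigned, and these cannot be told apart here. This measure was chosen after the data were seen. On it the groups did not overlap for 8 of the 49 genes and for 1623 of 14273 genes in all. Among genes with 1 transcript in GENCODE 44, that held for 394 of 1437. For MBNL1 the ratio was −0.25, −0.04, −0.19 and −0.24 in H/R+BA, against −0.34, −0.33, −0.43 and −0.28 in H/R, without overlap. For PTBP1 it averaged −0.0027 ± 0.038 in H/R+BA and 0.14 ± 0.069 in H/R, and for TRA2A 0.95 ± 0.06 in H/R+BA and 0.84 ± 0.05 in H/R (SD, n = 4 each). None of these passed the test: limma called 0 of the 49 genes and 0 of 14273 genes in all (a background of 0%), with 8 of the 49 and 1884 of all genes at an unadjusted p under 0.05, and a linear model without moderation called 0 in both as well. The range over libraries was narrower for genes with 1 transcript in GENCODE 44 (median 0.08) than for genes with more than 1 (median 0.19).

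Around the splicing factors, 8 lists of related genes were described, covering the splicing machinery and, in separate lists, other splicing regulators and target transcripts. Of their 161 tested genes, 12 were higher and 25 lower (22.98% called, against the background of 24.7%). Among the 15 Sm and LSm proteins, which form the rings around the spliceosomal snRNAs, 5 were higher and none lower in H/R+BA (33.3% called). Their median log2 fold change was 0.12, and their summed levels were 965 to 1010 FPKM in H/R+BA, against 808 to 878 FPKM in H/R. These sums were not repeated with FPKM rescaled to equal library totals. SNRPN, expressed from the imprinted paternal locus in brain and heart, averaged 153 ± 4.7 FPKM in H/R+BA and 119 ± 4.1 FPKM in H/R (log2 fold change 0.37, adjusted p = 9.14e-04), and shares sequence with SNRPB. SNRPF averaged 23.1 ± 1.2 FPKM in H/R+BA and 16.5 ± 3.1 FPKM in H/R, and SNRPD1 62.0 ± 2.8 and 48.4 ± 6.8 FPKM.

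The 20 U1 and U2 snRNP proteins had 3 higher and 2 lower genes (25% called, against 24.7% of all genes tested). SNRPA1, the U2 A′ protein, averaged 47.6 ± 1.6 FPKM in H/R+BA and 29.4 ± 2.2 FPKM in H/R (log2 fold change 0.68), SF3A2 29.1 ± 1.2 and 22.8 ± 1.8 FPKM, and SNRPA, the U1 A protein, 17.9 ± 1.2 and 14.7 ± 0.48 FPKM. Of the 17 tri-snRNP proteins, 2 were higher and 4 lower (35.3% called). Among them were PRPF8, the catalytic scaffold, at 40.8 ± 1.1 FPKM in H/R+BA and 48.8 ± 1.2 FPKM in H/R, PRPF6 at 30.4 ± 1.2 and 35.4 ± 1.5 FPKM, and the higher SNU13 at 106 ± 9.7 and 84.1 ± 3.9 FPKM. SYF2 was the only called gene of the 22 Prp19-complex and catalytic-step factors (4.55%), at 22.5 ± 0.72 FPKM in H/R+BA and 28.5 ± 1.8 FPKM in H/R. Of the 16 exon junction and nonsense-mediated decay genes, 2 were lower and none was higher (12.5% called). They were SMG9 (17.6 ± 1.3 FPKM in H/R+BA, 23.5 ± 2.3 in H/R) and SMG1 (12.97 ± 0.63 and 14.9 ± 0.57 FPKM).

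Of 22 speckle and SR-related genes, 3 were lower and none was higher (13.6% called, against 24.7% of all genes tested). Over all genes tested, 11.1% were lower and 13.7% higher. Summed levels of the list were 1114 to 1177 FPKM in H/R+BA and 1234 to 1338 FPKM in H/R. The sums of the lists were not repeated with FPKM rescaled to equal library totals. The 3 lower genes were BCLAF1 (38.9 ± 2.2 FPKM in H/R+BA, 59.9 ± 3.3 in H/R), the speckle RNA MALAT1 (50.6 ± 4.5 and 67.1 ± 6.1 FPKM) and LUC7L (17.8 ± 1.4 and 21.3 ± 1.7 FPKM). Of 35 tested other splicing regulators, 11 were lower and 1, RBMX, was higher (34.3% called, against 24.7% of all genes tested), with summed levels of 2037 to 2118 FPKM in H/R+BA and 2343 to 2432 FPKM in H/R. The helicase DDX5 averaged 271 ± 6.3 FPKM in H/R+BA and 393 ± 4.8 FPKM in H/R (log2 fold change −0.53, adjusted p = 1.98e-04), the U-rich binder TIA1 37.1 ± 2.0 and 49.2 ± 2.6 FPKM, and the cold-inducible RBM3 76.6 ± 4.3 and 98.0 ± 5.7 FPKM.

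Of the 14 transcripts known as targets of RBM20, MBNL or CELF proteins in heart, 1 was higher and 2 were lower (21.4% called, against 24.7% of all genes tested). Gene totals were lower for INSR (5.85 ± 0.38 FPKM in H/R+BA, 7.69 ± 0.67 in H/R) and NEXN (44.6 ± 4.1 and 74.4 ± 22.6 FPKM) and higher for MLIP (24.7 ± 2.7 and 16.1 ± 4.7 FPKM). NEXN in H/R had 88.6, 50.1, 98.0 and 60.8 FPKM, the same order of libraries as RBM20 in that H/R 1 and H/R 3 were above H/R 2 and H/R 4. These totals give no isoform and so say nothing of exon use. The 8 lists were chosen by gene symbol and are described by counts and medians, with no test over a list.

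**Figure D5:**
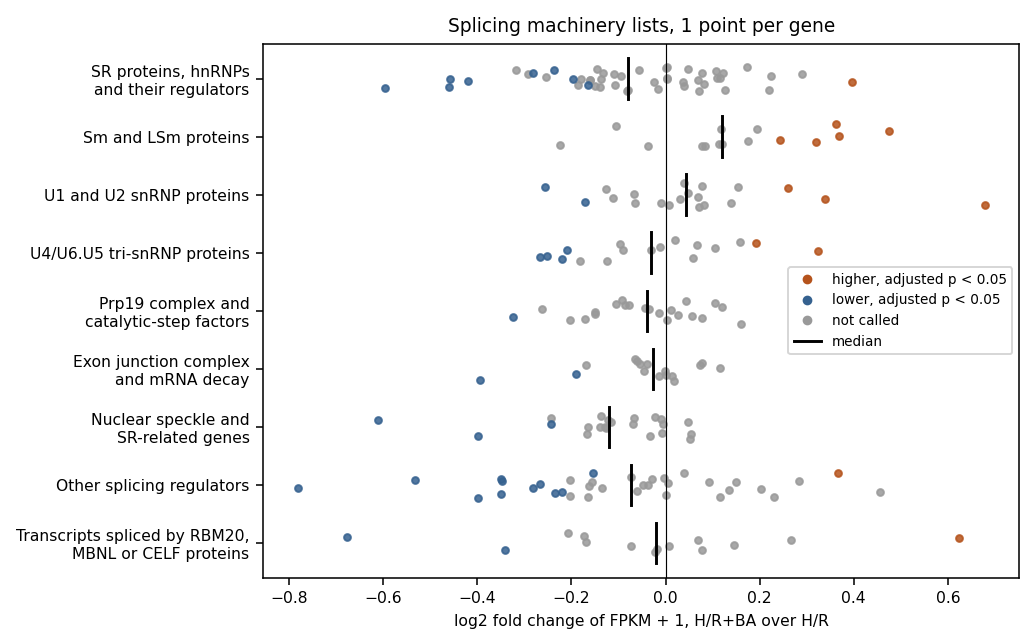
Log2 fold change of FPKM + 1, H/R+BA over H/R (x axis), for each tested gene of the 53 splicing factors and of the 8 lists of related genes (rows), with orange points for higher calls, blue for lower calls, grey for no call and a black bar at the median. The Sm and LSm row has 5 higher calls and none lower, and the row of other splicing regulators has 11 lower calls and 1 higher.

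RefSeq promoters (250 bases before to 50 bases after the start, GRCh38.p14) were matched by symbol for 45 of the 49 tested genes, among them 8 of the 9 called, and not for TRA2A, SRSF2, HNRNPA1 and RBFOX2. Motifs were searched as exact letters on both strands. The CRE core TGACGT was in 7 of the 45 (15.6%), against 8.32% of all 27305 promoters, and the called genes that hold it are CLK4, SRSF3 and TRA2B. The GC box GGGCGG was in 71.1% of the 45 (44.6% of all), the E-box CACGTG in 20% (7.43%), the CCAAT box in 40.0% (35.7%), the ETS core CCGGAAG in 11.1% (10.7%) and the TATA box TATAAA in 11.1% (12.0%). The median GC content was 66.3% in the 45 and 58.3% in all promoters. The promoters of CLK4 and SRSF3 are shown because these lower genes hold several of the motifs, which are in capitals. HNRNPH3, the gene called higher, also holds a CCAAT box, a GC box and an E-box. A link between motifs and direction was not tested.
CLK4 promoter (chr5:178627001-178627300, minus strand): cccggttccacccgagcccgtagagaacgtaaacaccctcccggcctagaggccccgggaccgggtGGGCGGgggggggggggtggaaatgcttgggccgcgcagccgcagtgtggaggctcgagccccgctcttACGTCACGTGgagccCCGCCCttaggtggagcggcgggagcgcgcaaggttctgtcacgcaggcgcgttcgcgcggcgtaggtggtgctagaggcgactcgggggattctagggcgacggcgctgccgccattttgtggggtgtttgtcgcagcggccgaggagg
SRSF3 promoter (chr6:36594112-36594411, plus strand): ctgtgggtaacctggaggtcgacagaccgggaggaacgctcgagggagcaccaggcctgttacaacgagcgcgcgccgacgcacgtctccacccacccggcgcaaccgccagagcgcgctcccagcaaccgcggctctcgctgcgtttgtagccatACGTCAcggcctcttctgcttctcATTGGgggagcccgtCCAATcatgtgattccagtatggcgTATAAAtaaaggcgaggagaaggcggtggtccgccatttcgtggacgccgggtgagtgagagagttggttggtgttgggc
In CLK4 the CRE core (on the other strand, first base 115 before the start) overlaps an E-box at 111, with GC boxes at 184 and 100. In SRSF3 the CRE core lies at 94, CCAAT boxes at 70 and 55, and a TATA box at 30 bases before the start. A match is a run of letters and not a measured binding site.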

How the data were processed

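Total RNA of iPSC-CMs was sequenced as 8 mRNA libraries from a stranded kit, in paired reads. The line is written 235G1 in the labels and 253G1 in the study's methods. Per the labels and methods, the authors trimmed reads with Trimmomatic 0.39, aligned them to GRCh38.p5 with HISAT2 2.1.0, counted genes with featureCounts 2.0.6 and compared groups with Cuffdiff 2.2.1. The strand setting of the counting was not stated. The deposited table lists 60658 genes with FPKM per library and a normalized count per library, which was treated as a signal because in each library only 80.6% to 81.3% of its values were whole multiples (within 0.02) of the smallest step, so no count model was run. The deposited sequencing summary gives reads and the percent mapped (95.4% to 96.3%), and 9 of its libraries, of samples not given here, were not used. The 4 columns of group means and the authors' own columns of fold changes and p-values were not used.

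Members were found by symbol and biotype. limma 3.58.1 in R 4.3.3 was fitted to log2(FPKM + 1) of all 8 libraries, with empirical Bayes moderation and a trend of variance on mean, 2-sided, for the 14334 genes at 1 FPKM or more in at least 4 libraries. P-values were adjusted by the Benjamini-Hochberg method over all of them, with a threshold of 0.05. A fold change on this scale understates the change of low genes. The fit was tested on simulated data first. The calls over all genes, the members and the lists were repeated under 17 alternatives: a pseudocount of 0.1, all genes kept, genes kept at 10 normalized counts in every library, 2 rescalings of FPKM, the normalized counts, no moderation, a replicate block, protein-coding genes only, and each of the 8 libraries left out. The ratio of FPKM to normalized count was added after the data were seen and was repeated without moderation, with the block and with each library left out. Family sums were repeated with FPKM rescaled to equal totals, and the sums of the lists and of the cell type markers were not. Python 3.11.15, pandas 2.3.3 and matplotlib 3.10.9 made the tables and figures. Exon positions come from GENCODE 44 and promoters from RefSeq.

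FPKM per library is given for the 9 called members, for the 2 most abundant members of each family and for RBM20, PTBP1, SRPK1, CLK1 and MBNL1, and also, chosen after their values were seen, for HNRNPUL2-BSCL2, MYH7 and NEXN. Up to 3 called genes with the smallest p-values are named from each list of the splicing machinery. The members, the lists and this rule were chosen with earlier results of these data known, so they are no independent support for any pattern.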

Additional observations from a re-analysis of the deposited data

Results flagged for a closer look

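Within each group of 4 libraries, the highest or lowest library was compared with the other 3, for 98 groups of values in all, and 5 stood apart. By chance about 1 in 20 groups does so, and no explanation was weighed. The HNRNPL level of H/R 2 was 108.4 FPKM, with the other H/R libraries between 114.2 and 115.0 FPKM, and H/R 2 was thus the H/R library nearest to the H/R+BA libraries. HNRNPA1 was at 301.6 FPKM in H/R 3, against 338.0 to 343.7 FPKM in the others of its group. HNRNPF was at 80.41 FPKM in H/R 3, with the others between 90.68 and 92.47 FPKM. HNRNPUL2-BSCL2 was at 17.60 FPKM in H/R 3, with the others between 20.23 and 20.76 FPKM. In the H/R+BA group, CLK3 was at 39.02 FPKM in H/R+BA 1, with the others between 45.45 and 46.74 FPKM. HNRNPA1, HNRNPF and HNRNPUL2-BSCL2 stood apart in the same library, H/R 3, the library with the fewest reads, whose part in them was not tested.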

How the results depend on the processing

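TRA2A, HNRNPR, SRSF3, CLK1 and CLK4 kept their direction and call under all 17 alternatives. The other 4 called genes lost the call under some (HNRNPH3 under 2, HNRNPUL2 under 4, HNRNPL under 7, TRA2B under 12), and none of the 9 changed sign. Of the 40 genes not called, 12 were called under some alternative, and a count of this kind over all genes was not made. Some of these calls came on the normalized counts, where calls over all genes also rose. The calls among the splicing factors numbered 9, and 6 to 12 with 1 library left out, the highest without H/R 2. Without H/R 2, all genes tested had 1941 higher and 1571 lower calls, beside 1958 and 1588 in the main fit. On the deposited normalized counts they numbered 17 of 49 (2 higher, 15 lower). The calls in the machinery lists were then 59 of 161 (16 higher, 43 lower) against 37 (12 higher, 25 lower) on FPKM. Calls over all 14334 genes tested rose as well, to 2350 higher and 2595 lower on counts. The cause was not tested. The lists gave 25 to 43 calls with 1 library left out, and 26 with no filter. Over all genes, 1 library left out gave 1374 to 1941 higher and 1117 to 1571 lower calls. With no filter there were 1648 higher and 1169 lower calls among 33869 genes. For the ratio of FPKM to normalized count, the calls over all genes were 0, and 0 to 2 with 1 library left out, being 1 without H/R+BA 4, 1 without H/R 2 and 2 without H/R 4. No rescaling moved the median of all genes by more than 0.1 on the log2 scale.

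The replicate numbers were checked for pairing by the correlation of deviations from the group means. Same-numbered libraries gave 0.243, −0.235, −0.250 and −0.0145, so they did not regularly deviate together. The labels do not say whether the numbers pair the libraries. This check cannot settle it, because the deviations within a group are bound to each other. With the replicate block, 6 splicing factors were called (1 higher, 5 lower) with HNRNPUL2, HNRNPL and TRA2B lost, 28 genes of the lists of related genes, 2531 of all genes (1460 higher, 1071 lower) against 3546 without it, and 0 for the ratio. No H/R+BA library correlated best with the H/R library of its own number.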
